A study of Homo sapiens with 28 samples.

Results

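The Frizzled receptors FZD1 to FZD10 were followed through neural differentiation of H9 human embryonic stem (ES) cells with and without the transcription factor SOX1. The members were the rows of the deposited expression table that carried these 10 gene names, 10 of 58219 genes. Each name occurred in 1 row, and all 10 passed the filter on low values (a TPM, the length-corrected expression unit, of at least 1 in at least 2 of 28 libraries), as did 27912 genes in all. FZD10 passed through its CT libraries alone, since it stayed below 1 TPM in every ES and IWP2 library.

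Frizzled proteins are cell-surface receptors with a cysteine-rich extracellular domain that binds WNT ligands and a membrane part that passes through the membrane 7 times. With the co-receptors LRP5 and LRP6 they recruit Dishevelled and stabilise beta-catenin. With other partners they act in planar cell polarity. By sequence they are usually grouped as FZD1, FZD2 and FZD7, as FZD5 and FZD8, as FZD4, FZD9 and FZD10, and as FZD3 and FZD6. In the early neural plate, WNT signalling is best known for its role in setting head-to-tail position.

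The series held 14 groups of 2 polyA RNA libraries. Undifferentiated cells (label ES, day 0) and cells on day 4 and day 8 under the labels IWP2, CT0.4 and CT1.0 were sequenced as wild type (WT) and as SOX1-/- (KO). The WT libraries carried the line numbers 1 and 2, and the KO libraries carried 26 and 48. IWP2 is an inhibitor of WNT secretion. No label says what CT stands for or gives a unit for its number, so CT0.4 and CT1.0 serve here as names. The source is given as ES cells on day 0 and as neural progenitors from ES cells on days 4 and 8. It is not said whether a line is 1 clone, so p-values reflect the spread between these lines alone, and each value below is given for lines 1 and 2 (WT) or 26 and 48 (KO).

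SOX1 stood at 72.1 and 79.4 TPM in the WT CT1.0 day 8 libraries and at 1.14 and 2.77 TPM in their KO counterparts. In WT CT1.0 on day 4 it stood at 84.05 and 97.99 TPM. WT levels were lower elsewhere, at 0.264 and 0.177 TPM in ES cells. Under IWP2 they were 0.907 and 0.990 TPM on day 4 and 10.64 and 9.90 on day 8. WT CT0.4 libraries held 4.88 and 7.005 TPM on day 4 and 11.25 and 15.71 on day 8. KO libraries kept some SOX1 reads, up to 3.08 TPM. In all 4 ES libraries the 7 pluripotency markers were above 1 TPM. They summed to 4300 to 4310 TPM in WT ES cells. In WT CT1.0 on day 8 they summed to 521 to 570 TPM, with 4 of the 7 at 1 TPM or more. NANOG, TDGF1 and ZFP42 were below 1 TPM there in both libraries. The 7 neural progenitor markers summed to 1630 to 1730 TPM in WT CT1.0 on day 8, the highest group. They made 651 to 846 TPM in KO CT1.0 on day 4 and 296 to 329 in WT ES cells. The 6 mesendoderm markers summed to at most 6.46 TPM in ES cells, 5.98 TPM on day 4 and 3.95 TPM on day 8. The 4 WT libraries of CT0.4 and CT1.0 on day 4 stood apart, with 17690 to 18230 genes at 1 TPM or more against 18880 to 20340 in the other 24 libraries. In KO against WT of these labels the median log2 fold change of all genes was off centre, at 0.13 (CT0.4) and 0.20 (CT1.0). Differences below are log2 fold changes of TPM + 1 with their standard error (SE). A member is said to rise or fall where its limma p-value, adjusted over 27912 genes, was under 0.05. In bulk RNA, fewer cells of a type and less RNA per cell cannot be told apart.

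Which Frizzled gene dominated changed with the label. The 10 genes together made 232 and 236 TPM in WT ES cells, and FZD7 alone gave 58.0% ± 1.8 (SD, n = 2) of that sum. On day 8 in WT, IWP2 libraries held 659 and 665 TPM, with FZD5 at 50.5% ± 1.2. CT0.4 libraries held 224 and 237 TPM, with FZD3 at 36.9% ± 4.5, FZD2 at 22.1% ± 3.9 and FZD10 at 19.5% ± 1.8. CT1.0 libraries held 412 and 439 TPM, with FZD7 at 45.6% ± 1.5 and FZD2 at 34.0% ± 0.64. KO cells had the same leading gene as WT in ES cells, in both other labels and in CT1.0 on day 4. In KO CT1.0 on day 8 the sum was 258 and 280 TPM, FZD7 made 24% ± 3.4, and the 2 lines differed in their leading gene. In KO line 26 FZD3 led with 37.4%, and in KO line 48 FZD2 (28%) and FZD7 (26.4%) were above FZD3 (24.1%).

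**Figure D1:**
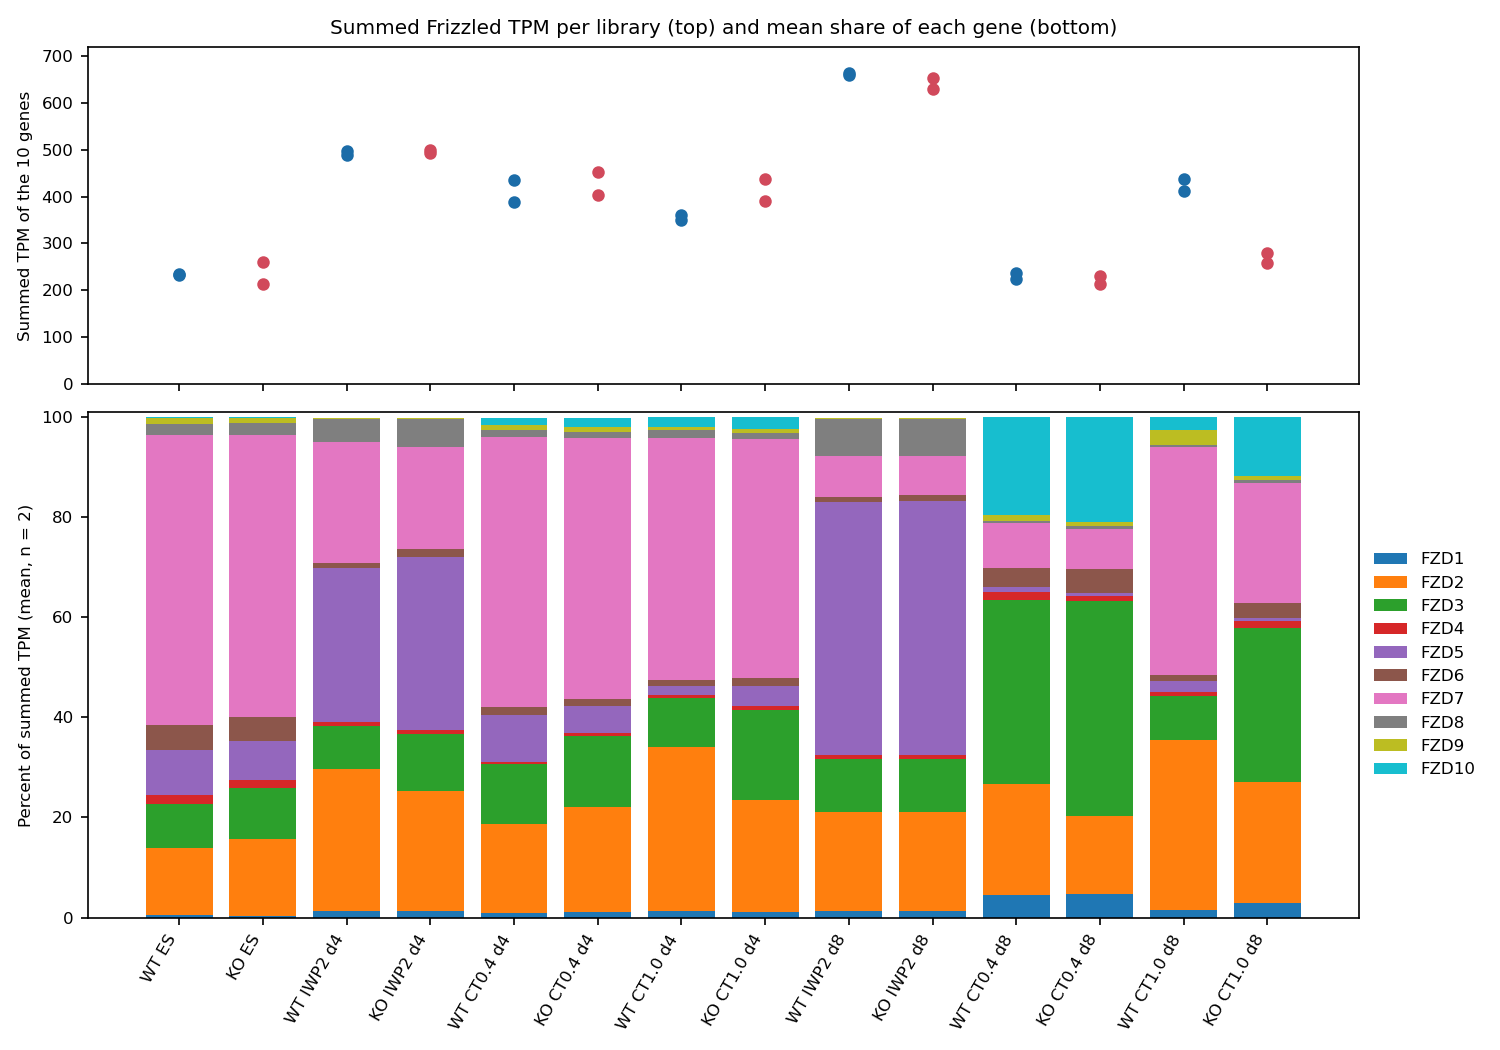
Summed TPM of FZD1 to FZD10 in each library (top, blue WT and red KO points) and the mean percent of that sum from each gene in the 14 groups of 2 libraries (bottom, stacked bars). FZD7 led in ES cells and in WT CT1.0 on day 8, FZD5 led under IWP2, and FZD3 led in CT0.4 on day 8. In KO CT1.0 on day 8, FZD3 has the highest mean share, but it led in 1 of the 2 libraries.

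**Figure D2:**
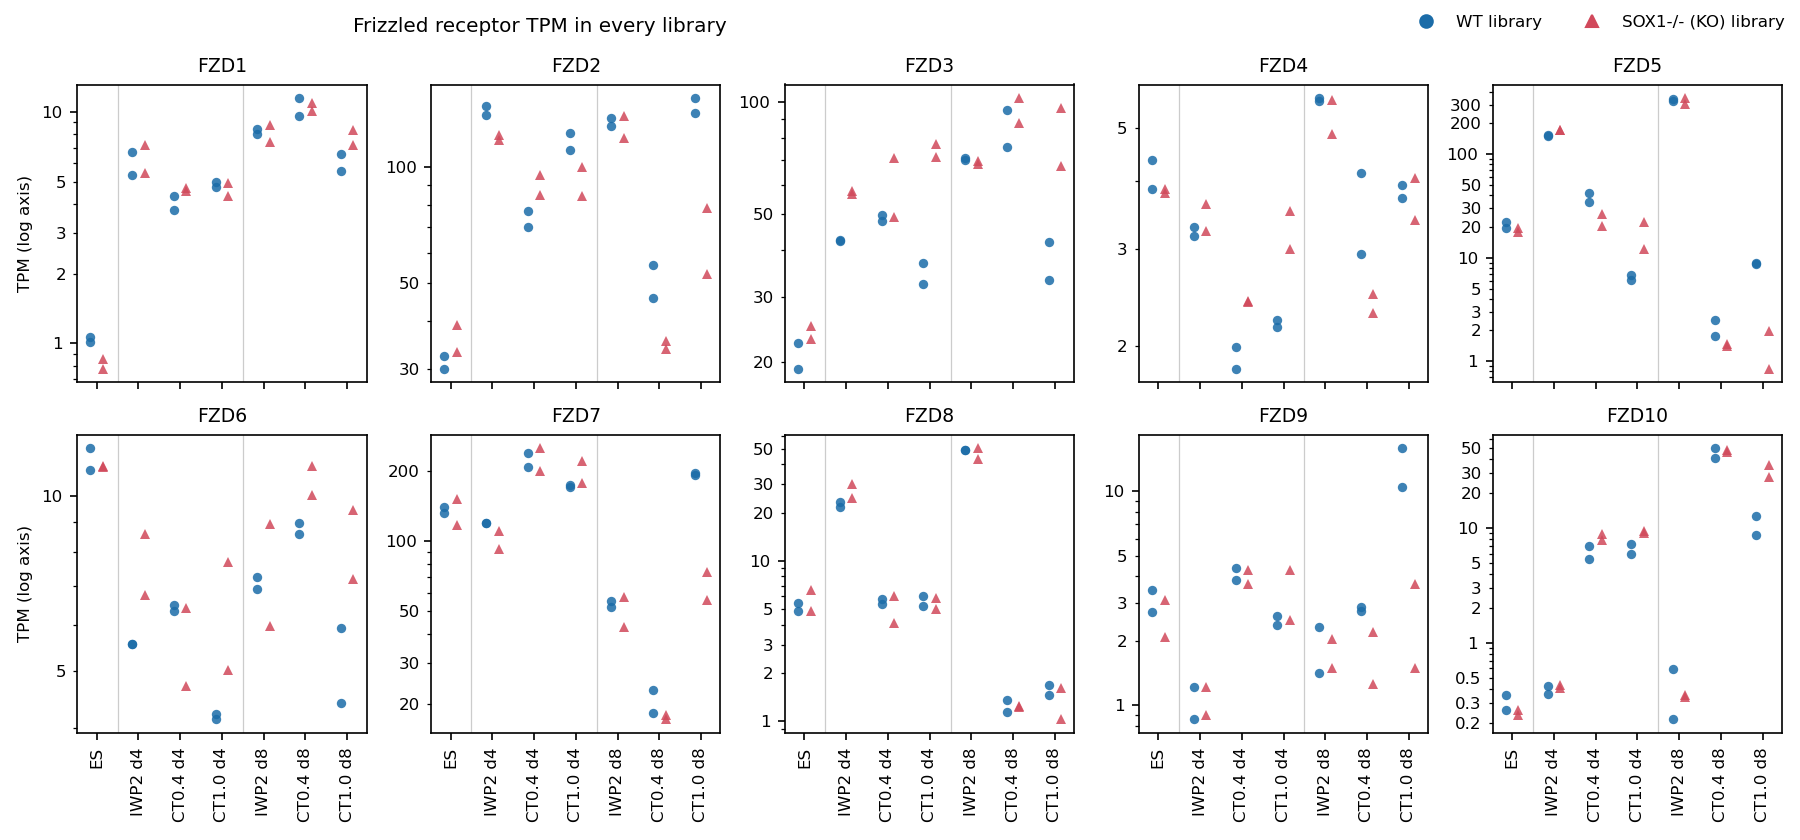
TPM of each Frizzled gene (log axis with its own range in each panel) in every library, by label and day, with WT as circles and KO as triangles. FZD5 and FZD8 were highest under IWP2 on day 8, FZD10 was highest in CT0.4 on day 8, and FZD7 differed between WT and KO in CT1.0 on day 8.

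FZD5 and FZD8 form 1 subfamily, and both are known from the forebrain and the eye field of vertebrate embryos. FZD5 lies on chromosome 2 (hg38, 207762586 to 207769563, minus strand) and FZD8 on chromosome 10 (35638249 to 35642278, minus strand), so they are not neighbours. Their RefSeq promoters (GRCh38.p14, 300 bases that end shortly after the start) are shown because these members moved together most closely. They are FZD5 at chr2:207769857-207770156 and FZD8 at chr10:35642247-35642546, both on the minus strand and 5′ to 3′. Capitals mark a CCAAT box, read here on the opposite strand as ATTGG.
FZD5: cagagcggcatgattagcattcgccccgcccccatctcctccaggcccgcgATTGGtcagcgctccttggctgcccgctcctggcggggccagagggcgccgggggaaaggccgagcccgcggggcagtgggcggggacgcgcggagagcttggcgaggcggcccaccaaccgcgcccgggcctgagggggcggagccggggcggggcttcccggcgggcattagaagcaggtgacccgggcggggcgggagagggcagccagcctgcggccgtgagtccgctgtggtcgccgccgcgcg
FZD8: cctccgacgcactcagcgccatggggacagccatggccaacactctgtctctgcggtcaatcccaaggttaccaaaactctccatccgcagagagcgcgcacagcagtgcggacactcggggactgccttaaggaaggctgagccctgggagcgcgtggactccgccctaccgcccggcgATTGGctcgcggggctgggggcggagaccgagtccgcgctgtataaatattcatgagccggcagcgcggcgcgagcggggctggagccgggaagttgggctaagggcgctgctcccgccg

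A CCAAT box (CCAAT or ATTGG, either strand) was found in 4 of the 5 members in the promoter table, FZD1, FZD4, FZD5 and FZD8, and in 34.6% of 35116 promoters of this length. FZD9 was the member of the table without one. The TCF/LEF letters CTTTG followed by 2 bases that are each A or T, and the SOX-type letters ACAAT, were searched on both strands and matched none of the 5, against 13.8% and 27.4% of all promoters. These are matches of letters in a window. The RefSeq window of FZD5 lies upstream of the gene end that GENCODE 29 gives as its start, so the 2 annotations place that start differently.

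FZD5 stood at 19.4 and 22.1 TPM in WT ES cells and at 17.7 and 19.4 in KO ES cells. Under IWP2 it reached 154 and 150 TPM on day 4 and 328 and 341 on day 8 in WT, and 349 and 305 on day 8 in KO. In CT0.4 it stood at 34.8 and 42.1 TPM on day 4 and 1.76 and 2.53 on day 8 in WT. The IWP2 libraries were far above all others, and no library of CT0.4 or CT1.0 on day 8 reached the ES level. WT FZD5 rose under IWP2 from ES to day 4 (2.82 ± 0.23, adjusted p = 3.86e-08) and again to day 8 (1.13 ± 0.23, adjusted p = 0.00276). On day 8 it was lower in CT0.4 than under IWP2 by a log2 fold change of -6.75 ± 0.23 (adjusted p = 3.95e-12). In CT1.0 the WT libraries held 6.12 and 6.76 TPM on day 4 and 8.85 and 8.68 on day 8. CT1.0 was thus also below IWP2 on day 8 (-5.10 ± 0.23, adjusted p = 1.72e-10), but above CT0.4 (1.64 ± 0.23, adjusted p = 5.70e-05). The last call and the IWP2 rise from day 4 to day 8 were lost without WT line 1 (adjusted p = 0.0881 and 0.163), and the latter also without WT line 2 (0.210).

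FZD8 followed FZD5 at a lower level. In WT it stood at 4.88 and 5.44 TPM in ES cells, and at 21.7 and 23.3 TPM on day 4 and 49.2 and 49.3 on day 8 under IWP2. KO IWP2 libraries on day 8 held 50.2 and 43.1 TPM. WT CT0.4 libraries fell from 5.37 and 5.76 TPM on day 4 to 1.36 and 1.14 on day 8, and CT1.0 libraries from 5.25 and 6.03 to 1.45 and 1.68. The day 8 groups of CT0.4 and CT1.0 did not overlap but were close. On day 8 FZD8 was below IWP2 in CT0.4 (-4.48 ± 0.18, adjusted p = 2.57e-11) and in CT1.0 (-4.29 ± 0.18, adjusted p = 9.59e-11). Unlike FZD5, its difference between CT1.0 and CT0.4 did not pass (0.19 ± 0.18, adjusted p = 0.590). Whether FZD5 and FZD8 differ from each other in this was not tested.

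FZD10 showed the opposite order. FZD10 is known from the dorsal neural tube, where WNT1 and WNT3A are made. In WT it stood at 0.261 and 0.355 TPM in ES cells and at 0.218 and 0.598 TPM under IWP2 on day 8. WT CT0.4 libraries rose from 5.39 and 6.94 TPM on day 4 to 49.2 and 40.8 on day 8, and the KO CT0.4 libraries stood at 45.6 and 47.7 on day 8. WT CT1.0 libraries held 7.22 and 5.92 TPM on day 4 and 12.7 and 8.74 on day 8. All CT libraries were above all ES and IWP2 libraries. FZD10 passed the filter through its CT libraries alone, so a higher level there was a condition of its being tested. This holds for its calls against IWP2 and ES cells, also where members are counted. Without the filter the day 8 calls against IWP2 were kept. On day 8 FZD10 was higher than under IWP2 in CT0.4 (5.04 ± 0.19, adjusted p = 1.26e-11) and in CT1.0 (3.05 ± 0.19, adjusted p = 1.19e-08), and lower in CT1.0 than in CT0.4 (-1.99 ± 0.19, adjusted p = 1.06e-06). The rise in CT1.0 from day 4 to day 8 was small (0.62 ± 0.19, adjusted p = 0.0373) and was lost without WT line 1 or 2, without KO line 26 or 48, with a pseudocount of 0.1 and under another scaling of the libraries.

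FZD10 begins at chr12:130162459 (hg38, plus strand), next to a divergent long noncoding RNA that the table names FZD10-AS1. The FZD10-AS1 group means followed those of FZD10 (Pearson r = 0.96 and Spearman rho = 0.96 over 14 group means). It stood at 29.8 to 36.7 TPM in WT CT0.4 and 25.9 to 26.2 TPM in WT CT1.0 on day 8. In KO CT1.0 on day 8 it stood at 19.8 to 35.2 TPM, a range that holds the WT values, where FZD10 itself was 8.74 to 12.7 TPM in WT and 27.9 to 35.2 in KO. This neighbour was chosen after its values were seen, and no source used here says whether counting used the strand.

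FZD9, a single-exon gene on chromosome 7 (73433783 to 73436120, plus strand) best known from the Williams syndrome region, was low in most groups. It stood at 3.45 and 2.73 TPM in WT ES cells and between 0.861 and 4.39 TPM in every other WT library outside CT1.0 on day 8. In WT CT1.0 on day 8 it reached 10.5 and 15.9 TPM. No other library reached these values. The rise from day 4 was 2.00 ± 0.30 (adjusted p = 0.000251), and the level on day 8 was above IWP2 (2.30 ± 0.30, adjusted p = 5.17e-05) and above CT0.4 (1.87 ± 0.30, adjusted p = 0.00028). All 3 calls were lost without WT line 2 (adjusted p = 0.0862, 0.103 and 0.116), and the rise also without WT line 1.

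FZD4, a receptor for the ligand Norrin in retinal vessels, varied little, from 1.82 to 5.66 TPM over all libraries. It was highest under IWP2 on day 8, at 5.58 and 5.66 TPM in WT, and lowest in WT CT0.4 on day 4, at 1.99 and 1.82. In WT CT0.4 on day 8 it stood at 2.94 and 4.14 TPM, below IWP2 (-0.56 ± 0.16, adjusted p = 0.0267). That call was lost without WT line 1 or 2. FZD4 overlaps PRSS23 on the opposite strand, a gene with up to 334 TPM in these libraries. Reads from the overlap cannot be told apart without strand, and the group means of the pair had r = 0.13.

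FZD7 is the Frizzled best known from human ES cells. In ES cells it stood at 131 and 140 TPM in WT and 117 and 151 in KO. In WT it reached 208 and 238 TPM in CT0.4 and 170 and 174 in CT1.0 on day 4. On day 8 the labels separated: 55.2 and 52.3 TPM under IWP2, 18.3 and 22.99 in CT0.4, and 192 and 195 in CT1.0. CT1.0 thus kept its day 4 level, while CT0.4 fell below every ES library. FZD7 fell in WT CT0.4 from day 4 to day 8 (-3.38 ± 0.17, adjusted p = 5.72e-10), and the change in CT1.0 did not pass (0.17 ± 0.17, adjusted p = 0.590). On day 8 it was higher in CT1.0 than in CT0.4 by a log2 fold change of 3.18 ± 0.17 (adjusted p = 2.48e-09).

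FZD2, a receptor for WNT5A among other ligands, was an abundant member in all groups. It rose from 32.3 and 30.1 TPM in WT ES cells to 144 and 137 TPM under IWP2 on day 4 (2.14 ± 0.15, adjusted p = 5.28e-09). On day 8 the WT libraries held 134 and 128 TPM under IWP2, 45.8 and 55.7 in CT0.4 and 138 and 151 in CT1.0. The CT0.4 libraries stood apart as low, and IWP2 and CT1.0 did not overlap but were close. The difference of CT1.0 from IWP2 did not pass (0.14 ± 0.15, adjusted p = 0.658), and CT1.0 was above CT0.4 by 1.5 ± 0.15 (adjusted p = 1.21e-06).

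FZD1, whose protein is a close relative of FZD2 and FZD7, had the lowest levels of its subfamily. In ES cells it stood at 1.01 and 1.07 TPM in WT and 0.861 and 0.779 in KO. WT CT0.4 libraries rose to 3.77 and 4.31 TPM on day 4 and 11.5 and 9.59 on day 8. IWP2 libraries held 8.43 and 8.05 TPM on day 8 and CT1.0 libraries 6.55 and 5.53. Every differentiated library was above every ES library. FZD1 rose from ES to day 4 in all 3 WT labels, by 1.78 ± 0.16 (IWP2), 1.3 ± 0.16 (CT0.4) and 1.52 ± 0.16 (CT1.0), with a highest adjusted p of 5.96e-06. On day 8 it was lower in CT1.0 than in CT0.4 (-0.71 ± 0.16, adjusted p = 0.00496), a call lost without WT line 1 or 2.

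FZD3 and FZD6 act mainly in planar polarity, and FZD3 is needed for axon tracts in the mouse brain. FZD3 stood at 22.6 and 19.2 TPM in WT ES cells. On day 8 the WT libraries held 69.8 and 71.0 TPM under IWP2, 95.01 and 75.6 in CT0.4 and 33.3 and 42.1 in CT1.0. CT1.0 was the low group. FZD3 was lower in CT1.0 than under IWP2 (-0.89 ± 0.17, adjusted p = 0.00191) and than in CT0.4 (-1.16 ± 0.17, adjusted p = 0.000126). Both calls were lost without WT line 1 (adjusted p = 0.238 and 0.149), and the former also without WT line 2.

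FZD6 was highest in ES cells, at 12.1 and 11.1 TPM in WT, and fell by day 4, to 5.58 and 5.57 TPM under IWP2, to 6.49 and 6.34 in CT0.4 and to 4.23 and 4.14 in CT1.0. Its 14 group means had r = -0.83 with those of FZD2. The log2 fold changes from ES were -0.93 ± 0.20, -0.76 ± 0.20 and -1.28 ± 0.20, with a highest adjusted p of 0.00767. The falls under IWP2 and in CT0.4 were lost without WT line 1 or 2. FZD6 overlaps the antisense gene BAALC-AS1, which stayed at or below 5.49 TPM but was not always far below FZD6. In WT CT1.0 on day 8 BAALC-AS1 averaged 4.86 TPM and FZD6 5.18. Reads from the overlap cannot be told apart without strand, and the group means of the pair had r = 0.42. Both FZD3 and FZD6 lie on chromosome 8 and have up to 8 exons in a transcript, whereas FZD1, FZD2, FZD7, FZD8, FZD9 and FZD10 have 1 exon.

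Within WT on day 8, 6 of the 10 members differed between CT0.4 and IWP2 (1 higher, 5 lower), where 12.2% of all genes tested did. Between CT1.0 and IWP2, 6 differed (3 higher, 3 lower) against 10.8% of all genes. Between CT1.0 and CT0.4, 8 differed (4 higher, 4 lower) against 14.3%. FZD8 and FZD4 were the pair that did not pass in this last comparison, and FZD6, lower in CT1.0 (-0.67 ± 0.20, adjusted p = 0.0320), was lost with either WT line left out, without the 4 libraries that stood apart and under median-ratio scaling. These 3 comparisons share libraries pairwise. The FZD10 calls against IWP2 carry its entry through the CT libraries alone. The median log2 fold change of the 10 members was -0.15, -0.40 and 0.15, beside 0.00, -0.08 and -0.05 for all genes. FZD7 changed sides between labels: it was lower than under IWP2 in CT0.4 (-1.35 ± 0.17, adjusted p = 2.19e-05) and higher in CT1.0 (1.83 ± 0.17, adjusted p = 1.00e-06). The former call was lost without WT line 1 (adjusted p = 0.0800). With the fit restricted to the 4 libraries of each comparison, 3, 3 and 1 members passed. The shares of all genes above belong to the full fit. Restricted fits called fewer of all genes in 19 of the 24 comparisons and more in 4.

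**Figure D3:**
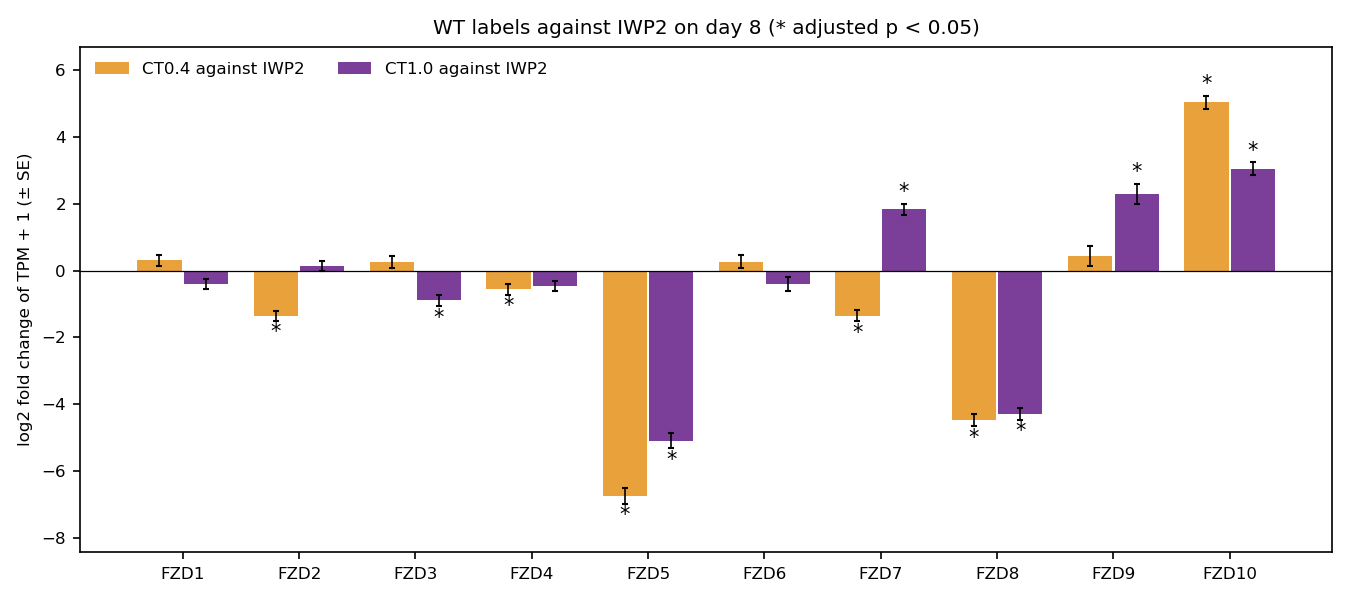
Log2 fold change of TPM + 1 (bars, ± SE from the limma fit) of each Frizzled gene in WT CT0.4 and WT CT1.0 against WT IWP2 on day 8, with 2 libraries a group and stars for an adjusted p under 0.05. FZD5 and FZD8 were lower and FZD10 was higher in both labels, and FZD7 was lower in CT0.4 and higher in CT1.0.

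On day 4 the same split was already present for FZD5, FZD8 and FZD10. Between CT0.4 and IWP2, 7 members differed (FZD7, FZD9 and FZD10 higher, FZD2, FZD4, FZD5 and FZD8 lower) against 13.1% of all genes. Between CT1.0 and IWP2, 4 differed (FZD7 and FZD10 higher, FZD5 and FZD8 lower) against 20.0%. FZD5 was lower than under IWP2 by -1.96 ± 0.23 in CT0.4 (adjusted p = 2.28e-05) and by -4.37 ± 0.23 in CT1.0 (adjusted p = 2.38e-09). The CT0.4 value lost its call without WT line 1 (adjusted p = 0.0671). Between CT1.0 and CT0.4, FZD2 was higher (0.66 ± 0.15) and FZD5 lower (-2.40 ± 0.23, adjusted p = 4.57e-06), where 6.47% of genes were called. FZD5 thus stood below CT0.4 in CT1.0 on day 4 and above it on day 8. The CT libraries here are the 4 that stood apart. With either WT line left out, the CT0.4 calls of FZD2, FZD4, FZD7 and FZD9, the CT1.0 call of FZD7 and the FZD2 call between the CT labels were each lost.

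From ES to day 4, 7 members changed under IWP2 (35.2% of all genes), 8 in CT0.4 (29.9%) and 7 in CT1.0 (31.0%). FZD1, FZD2 and FZD3 rose and FZD6 fell in each of the 3 labels, which share the ES libraries. With either WT line left out, the FZD3 call in CT1.0, the FZD6 and FZD9 calls under IWP2 and the FZD6 and FZD7 calls in CT0.4 were lost, and without WT line 1 so was the FZD4 call in CT1.0. FZD5 rose under IWP2 and in CT0.4 (0.85 ± 0.23, adjusted p = 0.00737), and fell in CT1.0 (-1.55 ± 0.23, adjusted p = 3.90e-05). Its CT0.4 call was lost without WT line 1 or 2. From day 4 to day 8, 5 members changed under IWP2 (13.8%), 8 in CT0.4 (24.8%) and 4 in CT1.0 (14.7%). The 8 of CT0.4 were FZD1, FZD3, FZD4 and FZD10 upwards and FZD2, FZD5, FZD7 and FZD8 downwards. Under a median-ratio scaling of the libraries 6 passed there, 2 higher and 4 lower, without FZD3 and FZD4. Those of FZD2 and FZD3 were also lost without either WT line, and that of FZD4 without WT line 2. All 5 IWP2 calls of this interval (FZD3, FZD4, FZD5 and FZD8 higher, FZD7 lower) were lost without WT line 1 and without WT line 2. Of the 4 CT1.0 calls (FZD4, FZD9 and FZD10 higher, FZD8 lower), none passed without WT line 1 or 2, and FZD8 and FZD9 passed under median-ratio scaling.

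KO cells differed from WT in their Frizzled genes in CT1.0. On day 8, 6 of the 10 members passed in CT1.0, where 14.3% of all genes tested did. FZD3 and FZD10 were higher in KO, and FZD2, FZD5, FZD7 and FZD9 were lower. No member passed in ES cells (0.219% of all genes), under IWP2 on day 4 (0.0430%) or day 8 (0.0609%), or in CT0.4 on day 4 (4.24%) or day 8 (0.416%). At an unadjusted limma p under 0.05 there were 0, 1, 0, 1 and 2 members in these 5 comparisons. Of all 27912 genes tested, 3007, 2317, 1408, 5211 and 2591 were under it in the same order. Under median-ratio scaling 1 member passed among them, FZD5 in CT0.4 on day 4 (-0.90, adjusted p = 0.0223). In these 5 comparisons the WT libraries themselves held less SOX1 than in CT1.0, down to 0.264 and 0.177 TPM in ES cells. The part of this in the missing calls was not tested.

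FZD7 on day 8 in CT1.0 was 192 and 195 TPM in WT and 55.7 and 73.7 in KO. Its log2 fold change was -1.58 ± 0.17 (adjusted p = 3.14e-05). FZD2 was 138 and 151 TPM in WT and 52.8 and 78.3 in KO (-1.16 ± 0.15, adjusted p = 0.000119). Both members of this subfamily were lower in both KO libraries than in either WT library. The KO values of FZD7 lay between those of WT CT0.4 and WT CT1.0. FZD1 was 6.55 and 5.53 TPM in WT and 8.37 and 7.20 in KO, and did not pass (0.32 ± 0.16, adjusted p = 0.217).

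FZD5 in CT1.0 on day 8 was 8.85 and 8.68 TPM in WT and 0.852 and 1.97 in KO (-2.06 ± 0.23, adjusted p = 3.80e-05). The KO libraries overlapped those of KO CT0.4, at 1.47 and 1.42 TPM. On day 4 the order was the reverse, with 6.12 and 6.76 TPM in WT and 22.4 and 12.1 in KO (1.24 ± 0.23, adjusted p = 0.00154), a call lost without WT line 1 or 2 (adjusted p = 0.104 and 0.0673). FZD8 was 1.45 and 1.68 TPM in WT and 1.03 and 1.61 in KO on day 8, and the groups overlapped (-0.16 ± 0.18, adjusted p = 0.667).

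FZD10 was 12.7 and 8.74 TPM in WT and 27.9 and 35.2 in KO (1.48 ± 0.19, adjusted p = 0.000135). The KO CT1.0 libraries lay between the WT CT1.0 and the WT CT0.4 libraries of that day. FZD9 was 10.5 and 15.9 TPM in WT and 1.496 and 3.68 in KO (-2.03 ± 0.30, adjusted p = 0.00041), and both KO libraries lay within the range of the other groups. FZD4 was 3.93 and 3.72 TPM in WT and 4.05 and 3.39 in KO (-0.04 ± 0.16, adjusted p = 0.979).

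FZD3 was 33.3 and 42.1 TPM in WT and 96.7 and 67.3 in KO on day 8 (1.09 ± 0.17, adjusted p = 0.000611), and 37.0 and 32.5 against 77.2 and 71.1 on day 4 (1.07 ± 0.17, adjusted p = 0.000566). On both days each KO library was above each WT library. FZD6 was 4.42 and 5.93 TPM in WT and 9.44 and 7.20 in KO on day 8. It missed the threshold (0.59 ± 0.20, adjusted p = 0.0602), and passed under median-ratio scaling (0.70, adjusted p = 0.0368). On day 4 in CT1.0, FZD3 and FZD5 were the 2 members called, against 14.9% of all genes, and FZD2 joined them, lower in KO, under median-ratio scaling (-0.61, adjusted p = 0.00644).

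The 6 day 8 calls rest on a spread shared over all 14 groups. Fitted with limma on these 4 libraries alone, 0 of the 6 passed (adjusted p = 0.175 to 0.218, with 0 of all genes called). Without WT line 1 FZD3 was lost (adjusted p = 0.0916), and without WT line 2 FZD9 was lost (adjusted p = 0.0577). Marker lists differed between the same libraries. The 6 neuron markers summed to 614 to 751 TPM in WT CT1.0 and 139 to 321 in KO CT1.0 on day 8, and the 7 progenitor markers, SOX1 among them, to 1630 to 1730 and 571 to 888. Neural crest markers summed to 25.5 to 33.1 TPM and 44.1 to 47.0, and surface ectoderm markers to 44.6 to 56.1 and 76.9 to 105. WT IWP2 libraries on day 8 had as high a crest sum (48.1 to 49.4) and a higher ectoderm sum (279 to 289). The crest genes behind the sums differed. In KO CT1.0, 5 of the 6 were at 1 TPM or more in both libraries, against 4 in WT CT1.0 and 2 in WT IWP2. SOX10 and FOXD3 were below 1 TPM in both libraries of WT CT1.0 and of WT IWP2, and in WT IWP2 TFAP2A and TFAP2B were too. In WT ES cells the ectoderm list made 542 to 576 TPM, so its sum does not mark that cell type. The crest sum alone does not show which crest genes were on. The part of the marker differences between WT and KO CT1.0 in the Frizzled values was not tested.

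**Figure D4:**
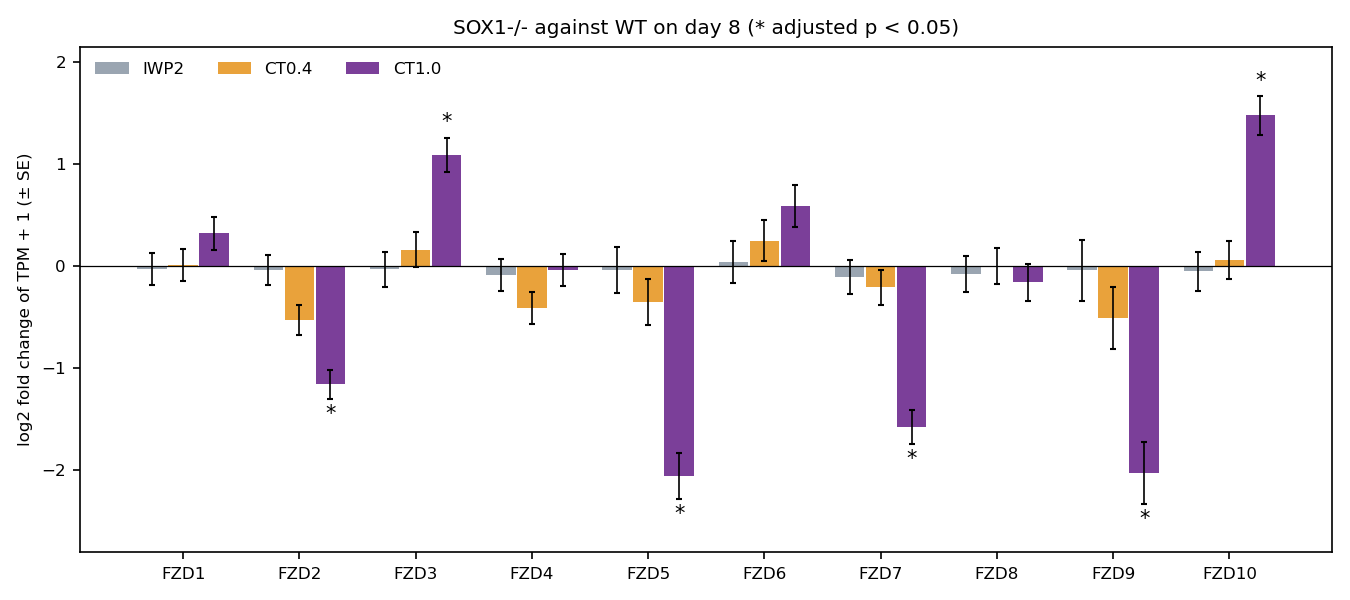
Log2 fold change of TPM + 1 (bars, ± SE from the limma fit) in KO against WT on day 8 for each Frizzled gene under IWP2, CT0.4 and CT1.0, with 2 libraries a group and stars for an adjusted p under 0.05. The starred differences are those in CT1.0, with FZD2, FZD5, FZD7 and FZD9 lower and FZD3 and FZD10 higher in KO.

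The difference between labels in the KO effect was tested directly. On day 8 it passed between CT1.0 and CT0.4 for 4 members (4.60% of all genes), with FZD3 and FZD10 more positive and FZD5 and FZD7 more negative in CT1.0. Between CT1.0 and IWP2 it passed for the 6 members called in CT1.0 (3.22% of all genes). Between CT0.4 and IWP2 it passed for 0 members (0.147% of all genes). At an unadjusted limma p under 0.05 there was 1 member, and 1843 of all 27912 genes tested. FZD7 gave -1.37 ± 0.24 (adjusted p = 0.00539) against CT0.4 and -1.47 ± 0.24 (adjusted p = 0.00425) against IWP2. FZD9 narrowly missed against CT0.4 (-1.52 ± 0.43, adjusted p = 0.0504). These comparisons share the CT1.0 libraries with each other and with the KO comparison above. They also set labels side by side whose WT SOX1 levels differed. With a line left out, the number passing ranged from 0 to 5 in either comparison with CT1.0, and on the libraries compared alone it was 0. Against CT0.4, FZD3 (0.92 ± 0.24, adjusted p = 0.0393) was 0.60 without WT line 1 and 0.56 without KO line 26 (adjusted p = 0.489 and 0.316). That call was also lost without WT line 2, without the filter, without the intensity trend and without the 4 libraries that stood apart. FZD10 against CT0.4 (1.43 ± 0.27, adjusted p = 0.00855) was lost with a pseudocount of 0.1 (adjusted p = 0.0580), and when WT line 2, KO line 26 or KO line 48 was left out. FZD5 and FZD7 against CT0.4 were lost when WT line 1 or 2 was left out. Against IWP2, FZD2, FZD3, FZD5, FZD7 and FZD9 were lost when WT line 1 or 2 was left out, and FZD3 and FZD9 also when KO line 26 was. FZD10 against IWP2 was lost when WT line 2, KO line 26 or KO line 48 was left out.

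Averaged per line over the 3 labels, FZD3 was higher in KO on day 4 (0.59 ± 0.09, adjusted p = 0.035, with 0.856% of all genes called). The call was lost without any 1 of the 4 lines. On day 8 no member passed in these line means (0.00% of all genes). At an unadjusted limma p under 0.05 there were 6 members, and 2572 of all 27912 genes tested.

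Over the 14 group means, FZD5 and FZD8 ran most closely together (r = 0.96, rho = 0.85), and FZD5 and FZD10 had the most negative r (r = -0.85, rho = -0.71). By rho, FZD1 and FZD7 (-0.81), FZD8 and FZD10 (-0.78) and FZD2 and FZD6 (-0.74) were more negative. The other 7 pairs within a subfamily had r from -0.60 to 0.42. FZD1 and FZD2 had 0.42, FZD9 and FZD10 had 0.33, FZD2 and FZD7 had 0.32, FZD3 and FZD6 had -0.05, FZD4 and FZD9 had -0.12, FZD4 and FZD10 had -0.47, and FZD1 and FZD7 had -0.60. The group means share labels, lines and a common scale, and these values are descriptions. Among 3954 candidate genes, the FZD10 pattern was most like those of WNT1 (r = 0.965), RFX4 (0.955) and OLFM3 (0.952). Its neighbour FZD10-AS1 (r = 0.96) was not a candidate because of its hyphenated name. FZD5 was most like MARCH4 (0.978), FZD8 (0.963) and PTPN5 (0.960), and FZD8 was most like FZD5, PTPN5 (0.960) and SPRY1 (0.957). FZD1 was most like MAP2 (0.977), CD99L2 and NECAB2, and FZD2 was most like ENC1 (0.958), PRSS23 (0.955) and SMOC1 (0.941). FZD7 was most like LINC01315 (0.896), SLC35F2 (0.863) and HES3 (0.860), and FZD3 was most like MAATS1 (0.945), SLC25A27 and POTEF (0.944). FZD9 was most like MIR5695 (0.899), VCAM1 (0.835) and LINC01314 (0.775). FZD4 and FZD6 spanned less than 2 log2 units and were not matched.

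**Figure D5:**
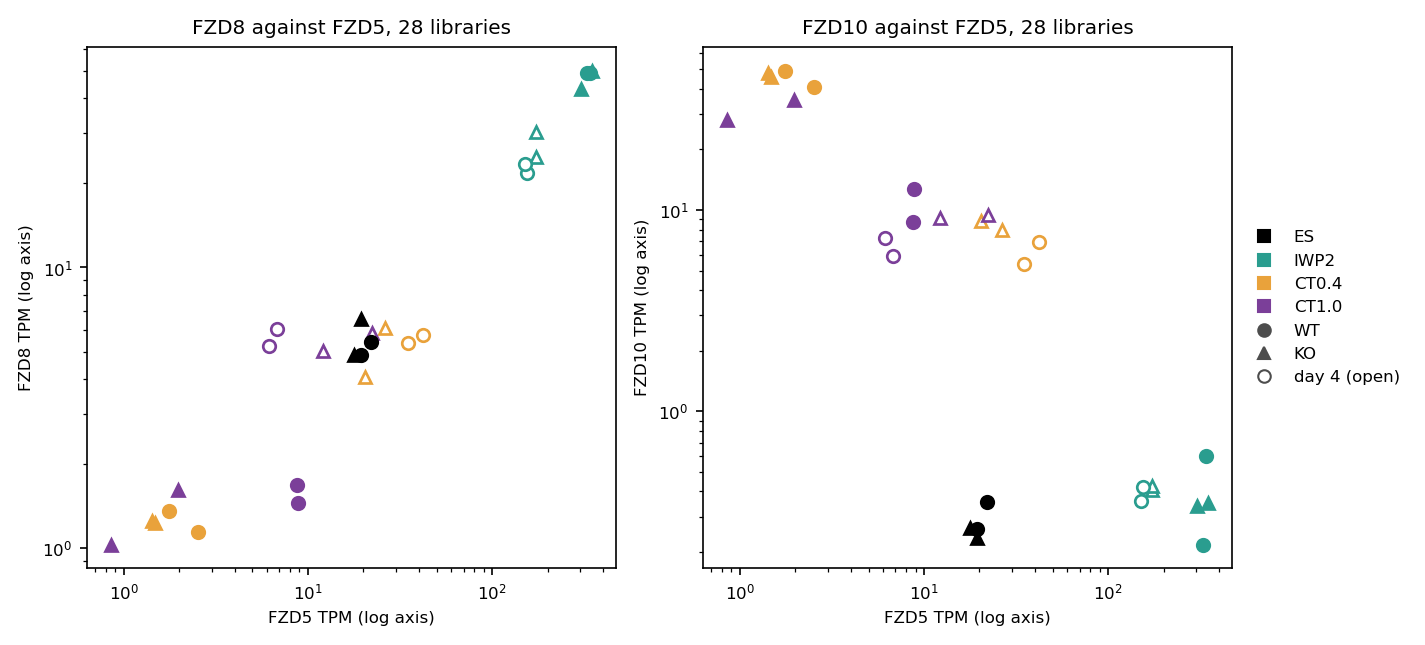
TPM of FZD8 (left) and FZD10 (right) against TPM of FZD5 in the 28 libraries (both axes log), coloured by label, with circles for WT, triangles for KO and open symbols for day 4. IWP2 libraries lie at high FZD5, high FZD8 and low FZD10. The CT0.4 day 8 and KO CT1.0 day 8 libraries lie at the other end, at low FZD5 and high FZD10.

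Genes that act beside the Frizzled receptors also differed between labels on day 8. Their counts stand beside the same shares of all genes called as above, 12.2% (WT CT0.4 against IWP2), 10.8% (WT CT1.0 against IWP2), 14.3% (WT CT1.0 against CT0.4) and 14.3% (KO against WT in CT1.0). Of 20 ligand genes, the WNT genes and NDP, which encodes Norrin, 15 could be tested, and in WT 9 were higher and 3 lower in CT0.4 than under IWP2, and 1 was higher and 11 lower in CT1.0 than in CT0.4. WNT1, a dorsal midline ligand, averaged 484 TPM in WT CT0.4, 0.104 under IWP2 and 6.23 in CT1.0. In KO CT1.0 the ligands were 6 higher and 1 lower than in WT, led by WNT1 at 94.8 ± 52.6 TPM (3.63 ± 0.37, adjusted p = 2.45e-05). Of 12 genes that respond to WNT signalling and feed back on it, 9 were higher and 1 lower in CT0.4 than under IWP2, and 0 higher and 8 lower in CT1.0 than in CT0.4. AXIN2, an inhibitor that is itself a WNT target, averaged 295 TPM in WT CT0.4, 43.4 in CT1.0 and 10.6 under IWP2. In KO CT1.0, 7 of the 12 were higher and 1 lower than in WT, led by SP5 (3.59 ± 0.55, adjusted p = 0.000516).

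Among 9 genes that set Frizzled turnover at the cell surface (R-spondins, LGR receptors and the ligases RNF43 and ZNRF3 among them), 5 were higher and 0 lower in WT CT0.4 than under IWP2, and 0 higher and 4 lower in CT1.0 than in CT0.4. LGR5 averaged 25.0 TPM in CT0.4, 5.85 under IWP2 and 0.946 in CT1.0. In KO CT1.0, 4 were higher and 0 lower than in WT, led by RSPO2 (2.01 ± 0.44, adjusted p = 0.00617). Of 5 secreted Frizzled-related proteins, which bind WNT ligands outside the cell, 1 was higher and 3 lower in KO CT1.0. SFRP4 fell from 36.0 ± 8.0 TPM in WT to 1.61 ± 0.95 in KO (-3.86 ± 0.39, adjusted p = 2.45e-05), and SFRP1 and SFRP2 also fell (-1.58 ± 0.14 and -1.39 ± 0.22). Of 11 co-receptors, 7 were lower in WT CT1.0 than under IWP2, GPC3 most (-3.29 ± 0.20, adjusted p = 9.60e-09), and 1 (ROR1) was higher in KO CT1.0. Of 10 planar polarity partners, CELSR1 and CELSR2 fell in KO CT1.0 (-0.77 ± 0.11 and -1.11 ± 0.16). Of 9 cytoplasmic transducers 1 passed there, GSK3A (-0.47 ± 0.11, adjusted p = 0.00934). The counts of co-receptors (1 of 11), polarity partners (2 of 10) and transducers (1 of 9) in KO CT1.0 were near the 14.3% called among all genes and are not a result about these lists. In KO CT0.4 on day 8, GPC3, SFRP2, WNT7B and WNT8B were lower and RSPO3 higher than in WT, and under IWP2 no gene of these 7 lists passed. On the 4 libraries of KO and WT CT1.0 alone, no gene of the whole table passed. Of the 42 counts of these lists over 6 day 8 comparisons, 20 moved by over 1.5 times when WT line 1 was left out, 17 for WT line 2, 8 for KO line 26 and 3 for KO line 48.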

How the data were processed

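PolyA RNA of 28 libraries (14 groups of 2) was measured. Per the submitters' processing notes, CASAVA 1.7, Salmon 0.8.2 and the build hg38 were used, with no role stated for each. The annotation release and the counting strand are not given in the sources used here. Per the labels' protocols, reads came from the HiSeq2000 or the HiSeq X-ten, and which library ran on which is not stated. The authors deposited TPM per gene, which corrects for gene length and keeps no depth, so the depth per library is unknown and no counting interval is given.

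From these values log2(TPM + 1) was computed for genes with at least 1 TPM in at least 2 libraries and fitted with limma 3.58.1 (R 4.3.3, intensity trend, 1 mean per group, 14 residual degrees of freedom). Because the pseudocount is 1, fold changes of low genes are understated. P-values were adjusted by the Benjamini-Hochberg method over 27912 genes within each of 24 comparisons and called under 0.05. Line means over 3 labels had 6 residual degrees of freedom. Scripts were tested on simulated data. The members, the pathway lists and the marker lists were chosen with earlier results of these data known. Besides the members, up to 3 called genes per pathway list and day 8 comparison, those with the greatest log2 fold change, could be named. For each member spanning at least 2 log2 units, so could the 3 candidate genes with the highest Pearson r. Candidates also spanned at least 2 log2 units and had a unique name. Pseudogenes, names with a dot and names of 2 parts joined by a hyphen were left out.

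Gene positions come from GENCODE 29, whose gene identifiers matched those of all 10 members. Promoters come from the RefSeq table of GRCh38.p14, which held 5 of the 10.

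Line numbers are shared by the groups of a genotype, and WT and KO share none. Over 10333 genes with a mean of at least 10 TPM, deviations of same-numbered libraries correlated above 0.1 in 0 of 21 WT pairs of groups (-0.094 to 0.078) and in 8 of 21 KO pairs (-0.057 to 0.204). It is not said whether libraries with the same number come from the same cells. In case they do, fits with the line as a fixed term or as a block were run as an alternative. The other alternatives left out the filter, used a pseudocount of 0.1, scaled by median ratios or took the libraries compared alone, dropped the intensity trend, or left out the 4 WT day 4 CT libraries or each line in turn.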

Additional observations from a re-analysis of the deposited data

Results flagged for a closer look

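On day 8 the KO effect differed between labels for 6 Frizzled genes, by the test of the difference itself in limma, on the log2 scale of TPM + 1. In CT1.0 against CT0.4 the difference was 0.92 for FZD3, -1.71 for FZD5, -1.37 for FZD7 and 1.43 for FZD10. In CT1.0 against IWP2 it was -1.11 for FZD2, 1.12 for FZD3, -2.02 for FZD5, -1.47 for FZD7, -1.99 for FZD9 and 1.54 for FZD10. Of all genes tested, 4.60% passed against CT0.4 and 3.22% against IWP2. Both sets use the same CT1.0 libraries, and on the libraries compared alone none of these differences passed. FZD5 and FZD7 against CT0.4 were lost when WT line 1 or 2 was left out. So were FZD2, FZD3, FZD5, FZD7 and FZD9 against IWP2. FZD10 against IWP2 was lost when WT line 2, KO line 26 or KO line 48 was left out. FZD3 against CT0.4 had the highest adjusted p of them (0.0393) and was 0.56 without KO line 26 and 0.60 without WT line 1, where it no longer passed. FZD10 against CT0.4 no longer passed with a pseudocount of 0.1 (adjusted p = 0.0580), or when WT line 2, KO line 26 or KO line 48 was left out.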

How the results depend on the processing

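Over 24 comparisons 91 Frizzled calls were made, and 0 changed direction with a pseudocount of 0.1, under median-ratio scaling or with a line left out. Leaving out a line can change a direction only where that line enters the comparison. The other runs keep the group means, so their direction was fixed in advance. With a pseudocount of 0.1 the calls kept were 89, without a filter 89, under median-ratio scaling 84, and without the intensity trend 88. Without the 4 WT day 4 CT libraries 46 of the 48 calls that do not use them were kept. Taking the line into account kept 91 of 91, with a highest adjusted p of 0.0484. In the comparisons of labels, of days and of KO effects the line was a fixed term. In KO against WT it was a block, with a consensus correlation of 0.001 over libraries and -0.016 over line means. With correlations this small the block fit is almost the main fit, so the calls it kept are no separate test. Without WT line 1 or WT line 2, 48 were kept in each case, without KO line 26 there were 83 and without KO line 48 there were 86. In these fits the lone library of a group is assumed to vary like the other groups. On the libraries compared alone, with 2 residual degrees of freedom in most comparisons, 38 were kept.

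Members called on the libraries compared alone were 0 in CT1.0 for KO against WT, both on day 4 and on day 8, 0 for the line means of day 4, and 0 for both KO effects of CT1.0. In WT they were 2 (CT0.4 against IWP2, day 4), 1 (CT1.0 against CT0.4, day 4), 3 (CT0.4 against IWP2, day 8), 3 (CT1.0 against IWP2, day 8), 1 (CT1.0 against CT0.4, day 8), 3 (CT0.4, day 8 against day 4) and 0 (CT1.0, day 8 against day 4). Median-ratio scaling gave 1 for KO against WT in CT0.4 on day 4, 0 for the line means of day 4 and 2 for CT1.0 on day 8 against day 4. Without the intensity trend the line means of day 4 gave 0. The cause was not tested. These counts, and those below with a line left out, have no share of all genes beside them. They do not compare the members with other genes.
Leaving out 1 line at a time, the members called ranged from 0 to 1 (KO against WT, CT0.4 day 4), 1 to 4 (KO against WT, CT1.0 day 4), 0 throughout (KO against WT, line means, day 4), 2 to 6 (WT CT0.4 against IWP2, day 4), 1 to 3 (WT CT1.0 against CT0.4, day 4), 4 to 8 (WT CT1.0 against CT0.4, day 8), 0 to 5 (WT IWP2 day 8 against day 4), 5 to 8 (WT CT0.4 day 4 against ES), 5 to 9 (WT CT0.4 day 8 against day 4), 0 to 3 (WT CT1.0 day 8 against day 4), 0 to 5 (KO effect in CT1.0 against CT0.4, day 8), 0 to 5 (KO effect in CT1.0 against IWP2, day 8). Of 77 called pathway gene differences 0 changed direction, which only the pseudocount, the scaling and the runs without a line could have shown. On the libraries compared alone 47 lost their call. Leaving out WT line 1 lost 28 of these calls, WT line 2 lost 27, KO line 26 lost 12 and KO line 48 lost 5.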
